A study of Mus musculus with 11 samples.

Results

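The genes described here encode the initiation and elongation factors of cytosolic translation. Their members are all rows of the count files whose symbol begins with Eif1 to Eif6 or with Eef1 or Eef2, leaving out the eIF2 kinases Eif2ak1 to Eif2ak4, the Y-linked Eif2s3y and pseudogenes. This rule finds 59 of 24421 gene rows, and 56 of the 59 passed the filter on low counts. They were measured by RNA sequencing in the adult hippocampus of mice exposed before birth to particulate matter (PM), airborne particles. PM libraries (n = 6) came from offspring of mothers given PM through the nose at 200 µg per kg, on gestational days 9, 12 and 15. Vehicle libraries (n = 5) came from offspring of mothers given normal saline. Pups were born on day 21 and the tissue was taken at 14 to 18 weeks of age. The labels state the dose for the second set of libraries alone, and they name no allele, strain or sex. The study asked how prenatal PM changes gene expression in the hippocampus of the offspring.

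Translation begins when the small ribosomal subunit, carrying the initiator tRNA brought by eIF2 and held by eIF1, eIF1A, eIF3 and eIF5, is recruited to the capped end of an mRNA by eIF4E, eIF4G and the helicase eIF4A, and then scans to the start codon. The exchange factor eIF2B recharges eIF2 with GTP, and phosphorylation of the alpha subunit of eIF2 blocks that step in the integrated stress response. In elongation, eEF1A delivers aminoacyl-tRNA to the ribosome, the eEF1B complex recharges eEF1A, and eEF2 moves the ribosome along the mRNA. In neurons, control of the cap-binding step and of eEF2 is known for its part in long-lasting synaptic plasticity and memory.

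The libraries fall into 2 sets of deposit. The first set holds replicates 1 to 3 of both groups, and the second set holds PM replicates 4 to 6 and vehicle replicates 4 and 5. Counts assigned to genes were 10938521 to 17763893 per PM library and 6012116 to 12496651 per vehicle library, and counts assigned to no feature were 18.8% to 34.0% of all counts in PM libraries and 60.9% to 62.0% in vehicle libraries, with no overlap. Alignments that were not unique were 7.2% to 9.9% of all counts in PM libraries and 4.2% to 4.7% in vehicle libraries. Those ambiguous between genes were 1.21% to 1.42% in PM libraries and 0.54% to 0.58% in vehicle libraries. The ribosomal RNA precursor Rn45s took 4.01% to 17.0% of gene counts in PM libraries and 0.792% to 2.17% in vehicle libraries. The long noncoding RNA Malat1, which stays in the nucleus, took 0.0827% to 0.807% in PM libraries and 2.12% to 2.33% in vehicle libraries, also with no overlap. The part of these shares in the results on translation factors was not tested. Of 6 neuron markers, 2 were higher in PM and 2 lower, with a summed level of 8946 to 10690 CPM in PM and 9937 to 11290 CPM in vehicle libraries (CPM are counts scaled to a common library size, with TMM factors). Of the other marker lists, 4 of 5 oligodendrocyte markers and 4 of 5 microglia markers were higher in PM and 0 lower, and of 5 astrocyte markers 3 were higher and 1 lower. The summed levels were 3829 to 8896 CPM in PM and 3591 to 4572 CPM in vehicle for oligodendrocytes, 135 to 209 CPM in PM and 94.7 to 115 CPM in vehicle for microglia, and 1541 to 2617 CPM in PM and 1309 to 1378 CPM in vehicle for astrocytes. Of 4 endothelial markers 2 were higher and 0 lower, of 3 pericyte and smooth muscle markers 1 was higher and 1 lower, and the 1 tested blood marker was lower. Blood markers summed to 2.19 to 8.96 CPM in PM and 15.0 to 18.1 CPM in vehicle, with Hba-a1 at 0. Of 4 tested choroid plexus markers 0 were higher and 1 lower, and their sum varied by library, from 31.6 to 2477 CPM in PM and from 68.9 to 1241 CPM in vehicle. The part of these cell type markers in the results on translation factors was not tested. In bulk tissue, fewer cells of a type and less RNA per cell cannot be told apart. Nothing in the labels ties each library to its own animal or litter, so p-values measure the spread between these libraries, which may be technical.

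Most translation factor genes were higher in PM. With edgeR's quasi-likelihood test, the set as covariate and Benjamini-Hochberg adjustment over 14982 genes (threshold 0.05), 35 of the 56 tested members were higher in PM, 7 were lower and 14 did not pass. Over all genes tested, 32.7% were higher and 36.4% lower, together 69.1%. The median log2 fold change, PM over vehicle, was 0.54 over the members and -0.04 over all genes tested. Together the members took 1.01% to 1.20% of gene counts in PM libraries and 0.689% to 0.741% in vehicle libraries, without overlap. In 31 members every PM library lay above every vehicle library, which 24.3% of all genes tested showed. In 4 members, Eif4ebp2, Eif4g1, Eif4enif1 and Eif5a2, every PM library lay below, against 28.1% of all genes. The remaining 21 overlapped.

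**Figure D1:**
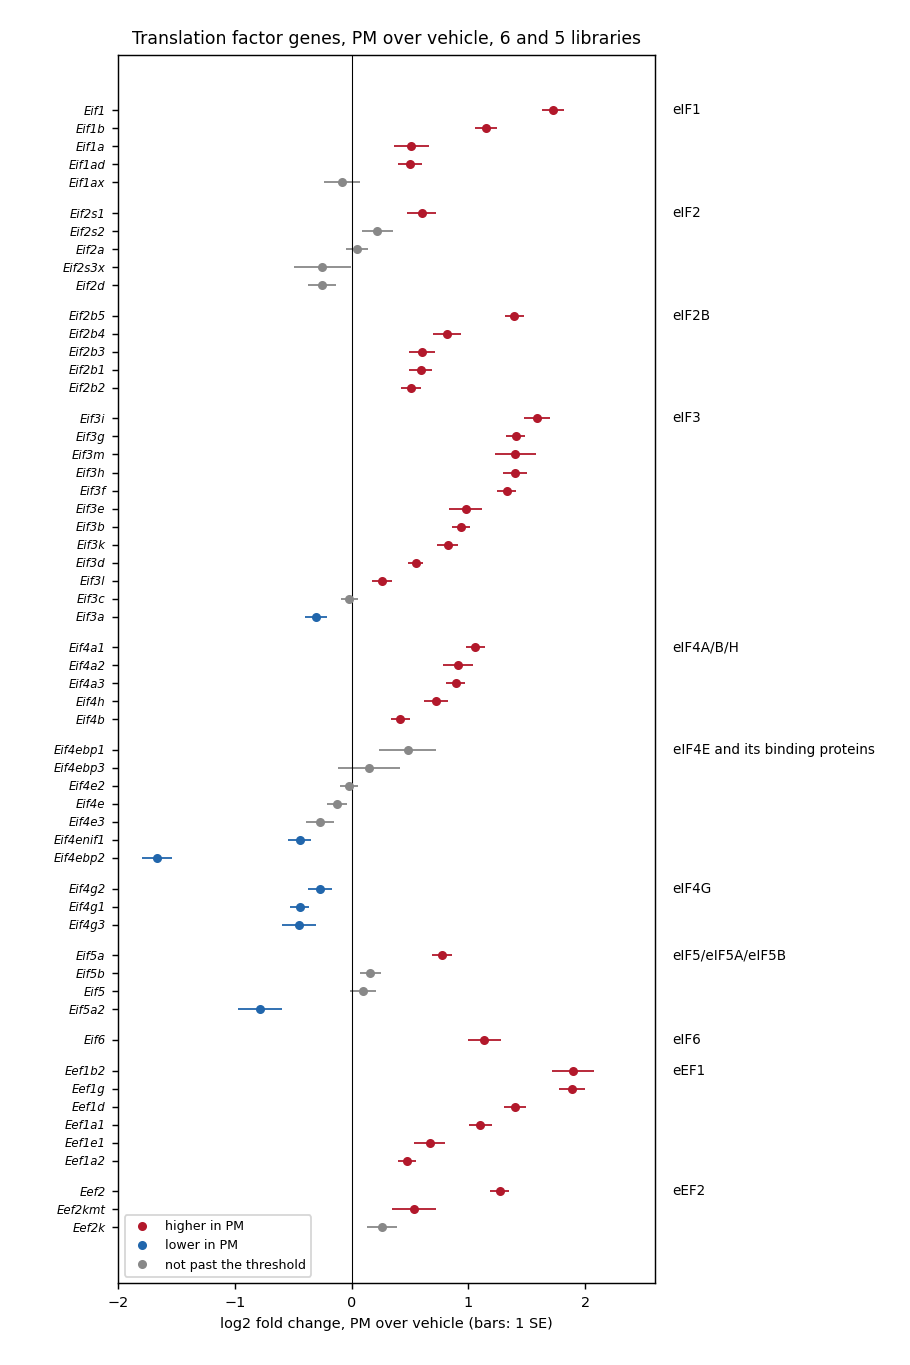
Log2 fold change of the 56 tested translation factor genes, PM over vehicle (6 and 5 libraries), grouped by factor from eIF1 at the top to eEF2 at the bottom. Points are edgeR estimates and bars 1 SE; red genes were higher and blue genes lower at an adjusted p threshold of 0.05. All members of eIF2B, eIF4A/B/H and eEF1 lie right of 0, and all 3 eIF4G genes lie left of it, of which Eif4g2 and Eif4g3 turn round once a length and GC trend is removed; the rise of Eef1a2 turns to a value below 0 (not past the threshold), and so does that of Eif2b2.

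By factor, all 6 eEF1 genes, all 5 eIF2B genes and all 5 eIF4A, eIF4B and eIF4H genes were higher in PM, as were 10 of 12 tested eIF3 genes, 4 of 5 eIF1 genes, 2 of 3 eEF2 genes and Eif6. All 3 eIF4G genes were lower, of which Eif4g2 and Eif4g3 turned to higher once a trend on transcript length and GC content was removed. Of the 7 tested genes of eIF4E and its binding proteins, 2 were lower, 5 did not pass and 0 were higher. Of the 5 eIF2 genes 1 was higher and 4 did not pass, and the 4 genes of eIF5, eIF5A and eIF5B divided into 1 higher, 1 lower and 2 that did not pass. The group medians of the log2 fold change ran from -0.45 in eIF4G and -0.12 in the eIF4E group, through 0.05 in eIF2, 0.13 in the eIF5 group, 0.51 in eIF1, 0.53 in eEF2, 0.60 in eIF2B, 0.89 in eIF4A/B/H and 0.96 in eIF3, to 1.25 in eEF1.

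The elongation factor eEF1 had the highest group median. Eef1a1, which delivers aminoacyl-tRNA to the ribosome (GRCm38, chr9:78478449-78489151, minus strand), had 2237, 2470 and 3550 CPM as the lowest, median and highest PM values, against 1461, 1110, 1481, 1159 and 1147 CPM in vehicle replicates 1 to 5. Every PM library lay above every vehicle library, and the fold was 2.15 (log2 fold change 1.10, SE 0.101, edgeR adjusted p = 4.65e-07). It was the most abundant member per transcript length, at 1499 CPM per kb in PM and 709 CPM per kb in vehicle. Eef1a2, the paralog used by mature neurons and muscle (chr2:181147653-181157014, minus strand), had 731, 801 and 898 CPM in PM (lowest, median, highest), against 640, 548, 688, 554 and 545 CPM in vehicle. The PM libraries again lay above all vehicle libraries, but by less: the fold was 1.39 (log2 fold change 0.47, SE 0.0765, edgeR adjusted p = 9.36e-05). This rise was lost when a smooth trend of counts on transcript length and GC content was removed from each library (log2 fold change -0.19, adjusted p = 0.0684).

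The 3 genes of the exchange complex that recharges eEF1A with GTP were among the strongest rises. Eef1b2, its beta subunit (chr1:63176825-63180486, plus strand), had 122, 144 and 256 CPM in PM (lowest, median, highest), against 40.3, 51.6, 36.6, 45.3 and 48.9 CPM in vehicle. The groups did not overlap, the 3 PM libraries of the first set were the highest, and the fold was 3.73 (log2 fold change 1.899, SE 0.18, edgeR adjusted p = 6.27e-07). Eef1g, the gamma subunit, averaged 240.4 ± 53.9 CPM in PM and 65.4 ± 2.47 CPM in vehicle (SD, n = 6 and 5; log2 fold change 1.89, SE 0.109). Reads of Eef1g are uncertain, because 49.4% of its 100-base windows occur also in another gene, mostly the pseudogene Gm4366; the same holds for 26.7% of the windows of Eef1a1 and for 1.25% of those of Eef1b2. Eef1d, the delta subunit, averaged 86.9 ± 5.93 CPM in PM and 32.95 ± 3.38 CPM in vehicle (log2 fold change 1.40, SE 0.0906). Eef1e1, a scaffold of the multi-synthetase complex rather than an elongation factor in the strict sense, had a log2 fold change of 0.67 (SE 0.133).

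Eef2, the GTPase that moves the ribosome along the mRNA (chr10:81176631-81182498, plus strand), had 1018, 1182 and 1468 CPM in PM (lowest, median, highest), against 549.5, 473, 549.5, 508 and 465 CPM in vehicle. Every PM library lay far above the highest vehicle library, and the fold was 2.41 (log2 fold change 1.27, SE 0.0838, edgeR adjusted p = 2.58e-08). Eef2k, the kinase that phosphorylates and inhibits eEF2, averaged 41.6 ± 8.27 CPM in PM and 33.5 ± 3.24 CPM in vehicle and did not pass over all libraries (log2 fold change 0.26, adjusted p = 0.0813). Eef2kmt, which methylates eEF2, was higher at a low level, 4.14 ± 0.707 CPM in PM and 2.85 ± 0.558 CPM in vehicle (log2 fold change 0.53, adjusted p = 0.022), with overlapping groups, and did not pass after that removal (0.10, adjusted p = 0.687). Its exons overlap those of Alg1 on the opposite strand by 472 bases, and without a known strand setting reads of both cannot be told apart. The same limit holds for Eif5b with Rev1 (1643 bases), Eif1ad with Banf1 (428 bases), Eif2b4 with Snx17 (204 bases), Eif4a2 with Rfc4 (194 bases), Eif3m with Ccdc73 (82 bases), Eif2d with Rassf5 (78 bases) and Eif2a with Serp1 (72 bases). Overlaps on the same strand, where no strand setting would separate reads, include Eef1d with Naprt (277 bases), Eif4a2 with Snora81 (178 bases) and Eif5 with Snora28 (127 bases).

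**Figure D2:**
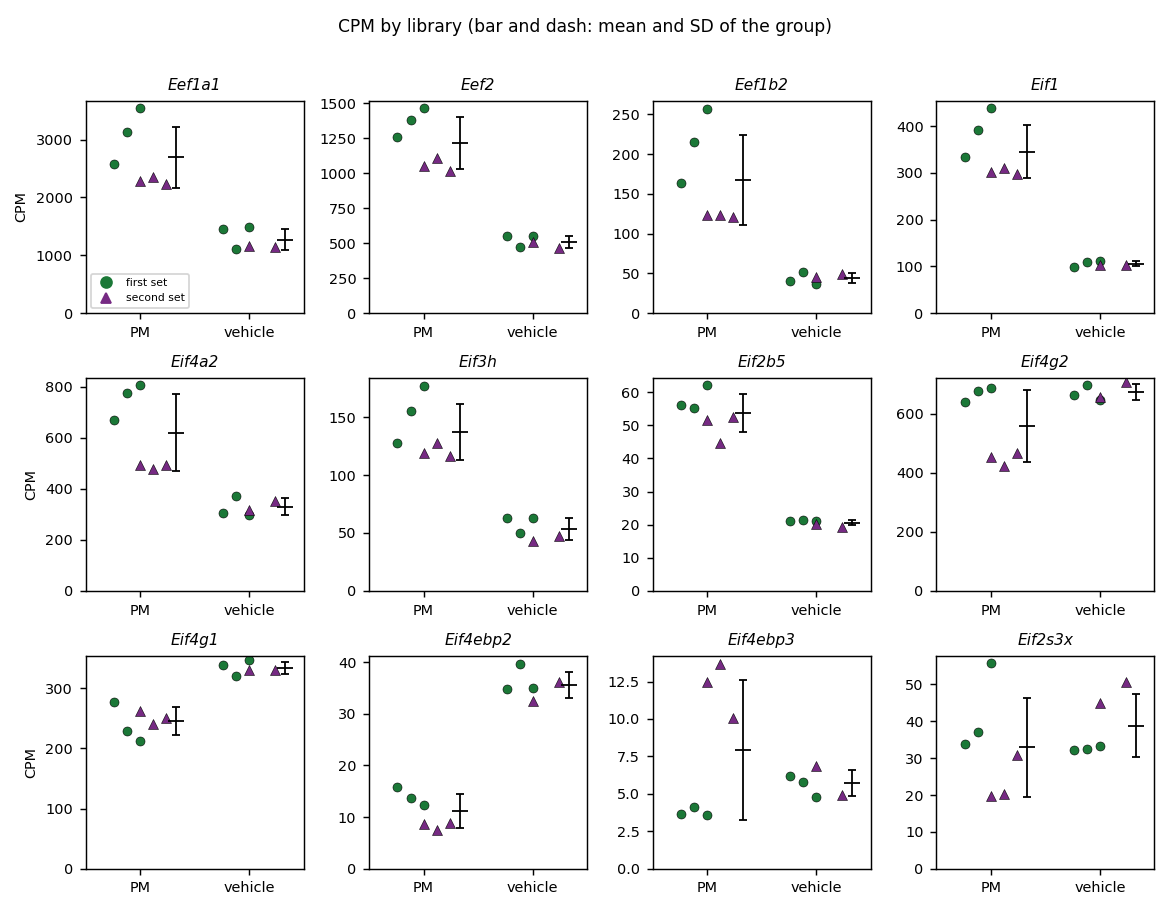
Level of 12 translation factor genes in CPM (linear axis from 0) in each PM library, on the left of each panel, and each vehicle library, on the right; circles are the first set and triangles the second set, and the dash and bar are the mean and SD of the group. Eef1a1, Eef2, Eef1b2, Eif1, Eif4a2, Eif3h and Eif2b5 lie above all vehicle libraries in every PM library, Eif4g1 and Eif4ebp2 lie below, and Eif4g2, Eif4ebp3 and Eif2s3x overlap, with the PM sets apart from each other.

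Among the factors that hold the scanning ribosome open, Eif1 stood out. Eif1, which guards the choice of the start codon (chr11:100319885-100322096, plus strand), had 296, 322 and 438 CPM in PM (lowest, median, highest), against 98.99, 110.5, 111, 104 and 103 CPM in vehicle. There was no overlap, and the fold was 3.30 (log2 fold change 1.72, SE 0.094, edgeR adjusted p = 6.17e-09); 19.2% of its 100-base windows occur also in another gene. Its paralog Eif1b (chr9:120492232-120495330, plus strand) had 102, 114 and 135 CPM in PM, against 50.1, 60.5, 48.2, 47.9 and 56.3 CPM in vehicle, also without overlap (log2 fold change 1.15, SE 0.0932, adjusted p = 1.48e-07). Eif1a and Eif1ax encode forms of eIF1A, the partner of eIF1. Eif1a averaged 47.0 ± 11.8 CPM in PM and 33.1 ± 4.35 CPM in vehicle (log2 fold change 0.51, adjusted p = 0.00882). Eif1ax, the X-linked copy, averaged 39.8 ± 11.8 CPM in PM and 41.8 ± 5.68 CPM in vehicle and did not pass (log2 fold change -0.08, adjusted p = 0.659). Eif1ad, which carries an eIF1A-like domain, was higher by a log2 fold change of 0.50 (SE 0.102).

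Of the 3 subunits of eIF2, which carries the initiator tRNA, 1 was higher over all libraries and the other 2 did not pass. Eif2s1, the alpha subunit that stress kinases phosphorylate (chr12:78861819-78887010, plus strand), had 33.3, 43.4 and 58.5 CPM in PM (lowest, median, highest), against 27.2, 33.8, 26.9, 29.3 and 31.9 CPM in vehicle. The highest vehicle library, at 33.8 CPM, lay just above the lowest PM library, and the gene was higher (log2 fold change 0.60, SE 0.125, edgeR adjusted p = 0.000751). Eif2s2, the beta subunit and the most abundant of the group per length, at 23.5 CPM per kb in PM and 20.2 CPM per kb in vehicle, ranged from 77.2 to 134 CPM in PM and from 74.6 to 91.2 CPM in vehicle and did not pass (log2 fold change 0.22, adjusted p = 0.16). Neither did Eif2a (0.05) nor Eif2d (-0.26), which encode separate initiator-tRNA binding proteins outside the eIF2 complex.

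Eif2s3x, the gamma subunit gene on the X chromosome (chrX:94188707-94212862, minus strand), did not pass with all libraries pooled (log2 fold change -0.25, SE 0.243, edgeR adjusted p = 0.37) and varied within groups. It had 33.9, 37.1, 55.9, 19.7, 20.2 and 30.8 CPM in PM replicates 1 to 6, against 32.3, 32.6, 33.4, 45.0 and 50.8 CPM in vehicle replicates 1 to 5. Its Y-linked partner Eif2s3y had 0 counts in PM replicates 3 and 6 and in vehicle replicates 4 and 5, and 25.2 to 71.9 CPM in the other PM libraries, against 44.5 to 63.8 CPM in the other vehicle libraries. Within each set, the PM library with no Eif2s3y count was the highest in Eif2s3x, and so were the vehicle libraries with none among all vehicle libraries. In the second set, both vehicle libraries but only 1 of 3 PM libraries had no Eif2s3y count, and there Eif2s3x was lower in PM (log2 fold change -1.03, SE 0.22, adjusted p = 0.000867). The part of this composition in the difference was not tested. Reads of Eif2s3x are uncertain too, with 35.3% of its 100-base windows in another gene.

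All 5 subunits of eIF2B, which recharges eIF2 with GTP, were higher in PM with no overlap between groups. Of all genes tested, 32.7% were higher and 24.3% had every PM library above every vehicle library. Eif2b5, the catalytic epsilon subunit (chr16:20498817-20509323, plus strand), had 44.7, 53.9 and 62.0 CPM in PM (lowest, median, highest), against 21.2, 21.4, 21.0, 20.3 and 19.4 CPM in vehicle. The vehicle libraries lay close together, all below the lowest PM library, and the fold was 2.63 (log2 fold change 1.39, SE 0.0802, edgeR adjusted p = 8.71e-09). The other 4 rose by less, with log2 fold changes of 0.82 for Eif2b4, 0.60 for Eif2b3, 0.59 for Eif2b1 and 0.51 for Eif2b2. After removal of the length and GC trend, Eif2b2 was no longer past the threshold (log2 fold change -0.05, adjusted p = 0.624), while the other 4 were.

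The eIF3 complex, the largest initiation factor, binds the small subunit and bridges it to eIF4G. Its subunits did not move as 1 block. Eif3i (chr4:129591960-129600648, minus strand) had 68.0, 73.7 and 105 CPM in PM (lowest, median, highest), against 33.9, 28.5, 25.9, 22.2 and 26.6 CPM in vehicle, a fold of 3.01 (log2 fold change 1.59, SE 0.108, edgeR adjusted p = 3.22e-08). Eif3h (chr15:51786558-51865523, minus strand) had 116, 128 and 177 CPM in PM, against 63.3, 49.6, 62.9, 43.3 and 47.5 CPM in vehicle (log2 fold change 1.40, SE 0.101, edgeR adjusted p = 5.27e-08). Both were well separated between groups. Per kb of the longest annotated transcript, Eif3h was the most abundant subunit in PM, at 106 CPM per kb. In vehicle it had 41.2 CPM per kb, below Eif3c at 47.1 and Eif3a at 45.1 CPM per kb. Eif3g, Eif3m and Eif3f had log2 fold changes of 1.41, 1.40 and 1.33, and Eif3e, Eif3b, Eif3k, Eif3d and Eif3l of 0.98, 0.94, 0.82, 0.55 and 0.26. The call for Eif3l did not hold after removal of the length and GC trend (0.13, adjusted p = 0.164). Reads of Eif3d are uncertain, because 39.3% of its 100-base windows occur also in Gm17638, which has no row in the count files. Exons of Gm17638 overlap those of Eif3d on the opposite strand by 2151 bases.

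Of the large scaffold subunits, Eif3a was lower in PM and Eif3c did not pass. Eif3c averaged 156 ± 13.2 CPM in PM and 159 ± 6.56 CPM in vehicle (log2 fold change -0.02, SE 0.0699, adjusted p = 0.819). Eif3a, the scaffold on which the complex assembles (chr19:60761117-60790658, minus strand), had 159.7, 183 and 231 CPM in PM (lowest, median, highest), against 223, 241, 214, 236 and 241 CPM in vehicle. The groups overlapped through PM replicate 1, and Eif3a was lower in PM (log2 fold change -0.31, SE 0.0924, edgeR adjusted p = 0.00931). It did not pass without PM replicate 6 (log2 fold change -0.25, adjusted p = 0.0615) or with no filter on low counts beyond 1 count (-0.21, adjusted p = 0.0996), and after removal of the length and GC trend it was higher in PM (log2 fold change 0.33, adjusted p = 0.00144). Eif3b, the other large core subunit, was higher in both fits, at 104 ± 2.62 CPM in PM and 54.5 ± 5.44 CPM in vehicle. Eif3j1 and Eif3j2, copies of the gene of the loosely bound subunit, had 0 counts in all 11 libraries, which allows up to 0.266 CPM in a PM library and 0.490 CPM in a vehicle library (3 counts, counting error only). Of the 100-base windows of Eif3j2, 84% occur in Eif3j1. Of those of Eif3j1, 36% occur in Eif3j2 and 47.6% in any other gene. Exons of Eif3j1 also overlap those of Spg11 on the opposite strand by 1107 bases. Why both rows are at 0 was not tested.

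The helicase eIF4A, which unwinds the leader of the mRNA, and its cofactors were all higher in PM, as were 32.7% of all genes tested. Eif4a1 (chr11:69666936-69672423, minus strand) had 233, 258 and 326 CPM in PM (lowest, median, highest), against 125, 139, 131, 122 and 132 CPM in vehicle, without overlap (log2 fold change 1.06, SE 0.0827, edgeR adjusted p = 1.07e-07); 22.4% of its 100-base windows occur in another gene, mostly a pseudogene. Eif4a2, the more abundant of both forms here (chr16:23107444-23114136, plus strand), had 480, 584 and 808 CPM in PM, against 304, 374, 297, 318 and 354 CPM in vehicle. No PM library reached down to the vehicle range (log2 fold change 0.91, SE 0.126, adjusted p = 2.16e-05), and those of the first set, at 672 to 808 CPM, lay above those of the second set, at 480 to 495 CPM. Eif4a3, the helicase of the exon junction complex, had a log2 fold change of 0.89, and the RNA-binding cofactors Eif4h and Eif4b of 0.72 and 0.42. The call for Eif4h was lost after removal of the length and GC trend (log2 fold change 0.30, adjusted p = 0.0741).

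In the group of the cap-binding protein and its repressors, no gene was higher over all libraries. Eif4e, which binds the mRNA cap (chr3:138526179-138559696, plus strand), had 79.5, 95.6 and 111 CPM in PM (lowest, median, highest), against 101, 108, 101, 103 and 112 CPM in vehicle. The groups overlapped and the gene did not pass (log2 fold change -0.12, SE 0.0865, edgeR adjusted p = 0.217), although after removal of the length and GC trend it was higher in PM (0.58, adjusted p = 3.46e-06). Eif4e2, which competes with eIF4E for the cap, averaged 46.7 ± 3.98 CPM in PM and 47.8 ± 2.24 CPM in vehicle (log2 fold change -0.02). Eif4e3, a further cap-binding relative, had a log2 fold change of -0.27 (adjusted p = 0.0582), and Eif4e1b, the oocyte form, had 1 count in 1 PM library.

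The largest fall of any member was that of Eif4ebp2, the eIF4E-binding protein that prevails in brain and that, when not phosphorylated, keeps eIF4E from eIF4G (chr10:61428491-61452661, minus strand). It had 7.57, 10.51 and 15.7 CPM in PM (lowest, median, highest), against 34.7, 39.5, 34.9, 32.5 and 36.04 CPM in vehicle. The highest PM library lay far below the lowest vehicle library, and the level in PM was 0.315 times that in vehicle (log2 fold change -1.67, SE 0.13, edgeR adjusted p = 1.02e-07). It stayed lower after removal of the length and GC trend (log2 fold change -1.27, adjusted p = 6.64e-06). Neither of its relatives passed over all libraries. Eif4ebp1 averaged 2.33 ± 0.291 CPM in PM and 1.68 ± 0.593 CPM in vehicle (log2 fold change 0.48, adjusted p = 0.0981). Eif4ebp3 (chr18:36664060-36665917, plus strand) had 3.58, 7.11 and 13.7 CPM in PM, against 6.18, 5.79, 4.79, 6.87 and 4.95 CPM in vehicle (log2 fold change 0.14, adjusted p = 0.644); 62.8% of its windows lie also in an overlapping annotated gene that has no row in the count files. Eif4enif1, the 4E-T protein that carries eIF4E to the nucleus and to processing bodies, was lower in PM with no overlap (47.3 ± 6.84 CPM in PM, 63.3 ± 4.14 CPM in vehicle, log2 fold change -0.45, adjusted p = 0.00102).

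The scaffold eIF4G joins the cap-binding protein, the helicase and eIF3. Eif4g1 (chr16:20668313-20692884, plus strand) had 212, 246 and 278 CPM in PM (lowest, median, highest), against 339, 320.4, 347, 329.7 and 331 CPM in vehicle, and every PM library lay below (log2 fold change -0.45, SE 0.0805, edgeR adjusted p = 0.000234). Eif4g3 (chr4:137993022-138208508, plus strand) had 214, 298 and 364 CPM in PM, against 427, 339, 435, 344 and 343 CPM in vehicle, with overlap (log2 fold change -0.45, SE 0.146, adjusted p = 0.0143). Eif4g2, which lacks the eIF4E site and serves cap-independent initiation (chr7:111067750-111083030, minus strand), had 424, 555 and 688 CPM in PM, against 664, 697, 646, 657 and 707 CPM in vehicle. Its groups overlapped, and its call (log2 fold change -0.27, SE 0.105, adjusted p = 0.0336) was lost without any 1 of PM replicates 4, 5 and 6 or vehicle replicates 4 and 5 (adjusted p 0.0684 to 0.184), with DESeq2's size factors (adjusted p = 0.0708) or its own test (0.0909), with no filter beyond 1 count (0.213), with structural RNAs left out of the library sizes (0.134) and without the set covariate (0.0906). After removal of the length and GC trend, Eif4g1 alone of the 3 was still lower (log2 fold change -0.20, adjusted p = 0.0242), while Eif4g3 (0.37, adjusted p = 0.0051) and Eif4g2 (0.91, adjusted p = 2.61e-06) were higher in PM.

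The late factors divided. Eif5a, the hypusine-bearing factor that helps the ribosome through slow peptide bonds (chr11:69916714-69921958, minus strand), had 271, 299.5 and 333 CPM in PM (lowest, median, highest), against 158, 193, 163, 177 and 186 CPM in vehicle (log2 fold change 0.78, SE 0.0836, edgeR adjusted p = 2.16e-06). Eif5a2, its paralog (chr3:28781276-28798846, plus strand), had 24.1, 43.7 and 63.9 CPM in PM, against 72.1, 76.1, 67.2, 74.0 and 85.0 CPM in vehicle (log2 fold change -0.79, SE 0.192, adjusted p = 0.00245). Neither pair of groups overlapped, with Eif5a above and Eif5a2 below vehicle in every PM library. Neither call held after removal of the length and GC trend (log2 fold changes 0.20 and -0.04, adjusted p = 0.0784 and 0.84). Eif5, which triggers GTP hydrolysis by eIF2, and Eif5b, which joins the large subunit, had log2 fold changes of 0.10 and 0.16 and did not pass. Eif6, which keeps the large subunit from joining early and takes part in its maturation (chr2:155819832-155826925, minus strand), had 30.1, 36.6 and 42.1 CPM in PM, against 13.5, 16.4, 14.3, 18.3 and 20.6 CPM in vehicle. The groups did not overlap (log2 fold change 1.14, SE 0.142, adjusted p = 8.34e-06).

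The size of the PM effect differed between the sets for many members. Within the first set, 37 members were higher, 7 lower and 12 not past the threshold, against 32.1% higher and 38.9% lower of all genes tested. In the second set 33 were higher, 8 lower and 15 not past it, against 32.3% and 32.5% of all genes. The medians of the log2 fold change were 0.59 and 0.52. Of the members, 30 were higher in both sets and 2, Eif4ebp2 and Eif4g1, were lower in both, against 23.1% and 26.2% of all genes. In a test of the difference itself, 24 members differed between the sets, against 29.6% of all genes tested. The second set was below the first in 18 of them and above in 6, against 12.1% and 17.5% of all genes. Without vehicle replicate 5 the count was 13, and over all single libraries left out it ran from 13 to 28. The 3 PM and 2 vehicle libraries of the second set also differ from the first in composition. Rn45s took 4.01% to 8.14% of gene counts in its PM libraries, against 12.4% to 17.0% in those of the first set. The Y-linked Ddx3y had 550 to 638 counts in vehicle libraries of the first set and 0 in both of the second. The X-linked Xist had 22 to 35 counts in the former and 14819 and 20726 in the latter. In PM replicates 1 to 6, Ddx3y had 1065, 1203, 1, 725, 777 and 0 counts. The part of these in the differences was not tested.

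Among the rises that were smaller in the second set were Eef1b2 (log2 fold changes of 2.31 in set 1 and 1.38 in set 2), Eif6 (1.502 and 0.66), Eif3m (1.81 and 0.87) and Eif4a2 (1.21 and 0.54). The eIF2 subunits Eif2s1 (0.87 and 0.25) and Eif2s2 (0.53 and -0.17) rose in the first set and did not pass in the second. Eif5a2 had a log2 fold change of -0.24, not past the threshold, in set 1 and of -1.47 in set 2 (edgeR adjusted p of the difference 0.0001), and the fall of Eif4ebp2 was -1.38 and -2.05. Eif4g3 was lower in the first set (-0.81) and not past the threshold in the second (0.03), whereas Eif4g2 was lower in the second set (-0.60) and not past the threshold in the first (-0.00094). Eef2k was higher only in the second set (0.66, against -0.04 in the first; adjusted p of the difference 0.0032). In 2 members both sets passed with opposite signs, against 3.41% of all genes. Eif1ax was higher in the first set (0.32, edgeR adjusted p = 0.0181) and lower in the second (-0.60, adjusted p = 0.00086), and Eif4ebp3 was lower in the first (-0.56, adjusted p = 0.015) and higher in the second (1.06, adjusted p = 0.00038). Eif1ax is X-linked, and the part of the uneven Xist and Ddx3y counts in its reversal was not tested. Eif4ebp3 had 3.58 to 4.14 CPM in PM replicates 1 to 3 and 10.1 to 13.7 CPM in PM replicates 4 to 6, on either side of all 5 vehicle libraries, at 4.79 to 6.87 CPM.

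**Figure D3:**
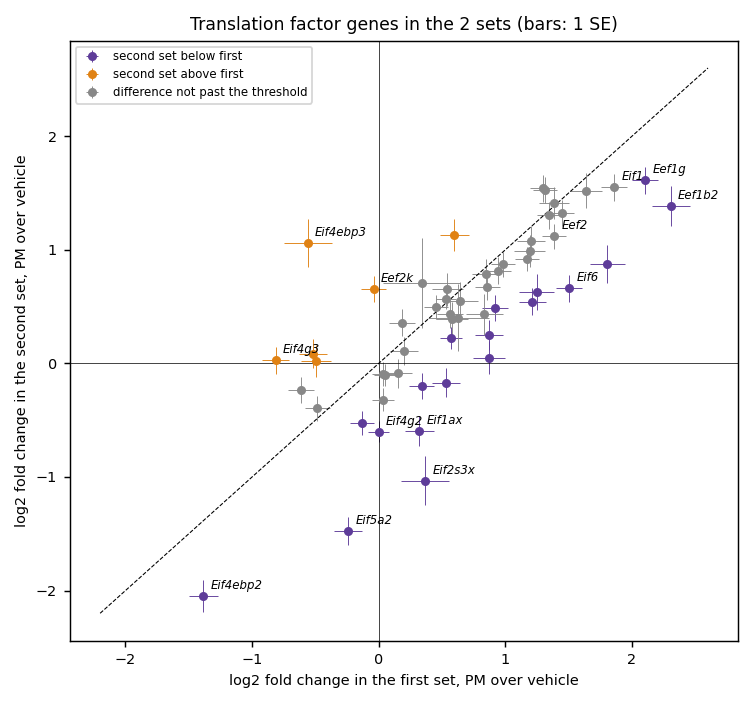
Log2 fold change, PM over vehicle, of each tested translation factor gene in the first set (horizontal axis, 3 against 3 libraries) and in the second set (vertical axis, 3 against 2 libraries); bars are 1 SE and the dashed line marks equal change. Purple genes were below and orange genes above the line at an adjusted p threshold of 0.05 for the difference; 18 are purple and 6 orange, with Eif1ax and Eif4ebp3 in the quadrants of opposite sign.

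Several factors exist as paralogs, some of them used in fewer tissues, and the ratio of both counts in a library does not depend on library size. The coding starts of the 3 pairs whose ratio differed are shown as a sample of the bases in which the partners differ. Of the 100-base windows of Eef1a2, Eif5a2 and Eif1b, 0% occur in another gene. For their partners Eef1a1, Eif5a and Eif1 the shares are 26.7%, 1.57% and 19.2%, so reads of these are less certain. Each line gives the first 99 coding bases from GENCODE M21 on GRCm38, and capitals mark bases that differ from the partner.
Eef1a2: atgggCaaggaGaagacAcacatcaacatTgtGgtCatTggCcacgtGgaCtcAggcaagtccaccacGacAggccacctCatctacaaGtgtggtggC
Eef1a1: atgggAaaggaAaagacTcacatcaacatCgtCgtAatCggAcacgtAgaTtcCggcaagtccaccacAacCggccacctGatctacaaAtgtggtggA
Eif5a2: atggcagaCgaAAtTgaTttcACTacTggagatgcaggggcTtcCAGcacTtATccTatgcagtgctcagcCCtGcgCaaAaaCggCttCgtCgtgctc
Eif5a: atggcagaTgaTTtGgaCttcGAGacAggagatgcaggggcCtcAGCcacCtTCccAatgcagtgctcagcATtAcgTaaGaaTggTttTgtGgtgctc
Eif1b: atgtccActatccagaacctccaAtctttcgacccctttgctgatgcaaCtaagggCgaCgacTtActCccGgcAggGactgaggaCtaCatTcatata
Eif1: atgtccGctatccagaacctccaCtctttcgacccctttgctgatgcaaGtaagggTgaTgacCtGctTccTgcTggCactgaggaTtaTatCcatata
In these stretches 16, 26 and 14 bases differ, and over the aligned coding sequences the identity is 80.0% for Eef1a2 and Eef1a1, 72.7% for Eif5a2 and Eif5a, and 81.3% for Eif1b and Eif1.

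In all 3 pairs the ratio was lower in PM. The mean log2 ratio of Eef1a2 to Eef1a1 was -1.70 ± 0.259 in PM and -1.09 ± 0.0642 in vehicle (SD, n = 6 and 5), a difference of -0.61. That of Eif5a2 to Eif5a was -2.85 ± 0.546 in PM and -1.23 ± 0.094 in vehicle, a difference of -1.62. That of Eif1b to Eif1 was -1.56 ± 0.125 in PM and -1.01 ± 0.151 in vehicle, a difference of -0.55. In each of the 3, every PM library lay below every vehicle library (exact permutation test of the library labels, two-sided, p = 0.0021645, which is the lowest value 6 against 5 libraries can give; adjusted p = 0.004329 over 6 pairs). Of all genes tested, 24.3% lay wholly above and 28.1% wholly below vehicle in PM. How often ratios of other gene pairs separate the groups in this way was not tested. The differences in the log2 ratio within the first and the second set were -0.74 and -0.49 for the Eef1a pair, -1.10 and -2.15 for the Eif5a pair and -0.65 and -0.47 for the Eif1 pair, where the smallest p a set can give is 0.1. The partners differ in length, above all Eif5a2 and Eif5a with longest transcripts of 5027 and 1437 bases. After that removal of length and GC trends, the values were log2 fold changes of -0.04 for Eif5a2 and 0.20 for Eif5a, -0.19 for Eef1a2 and 0.99 for Eef1a1, and 0.68 for Eif1b and 1.40 for Eif1; these ratios were not tested again. The other 3 pairs overlapped between groups: the differences were -0.15 for Eif4a2 to Eif4a1 (exact permutation test, adjusted p = 0.192), 0.03 for Eif4g3 to Eif4g1 (adjusted p = 0.833) and -0.12 for Eif4e3 to Eif4e (adjusted p = 0.621). For the Eif4g pair the sets went opposite ways, with -0.32 in the first and 0.42 in the second, and for the Eif4e pair likewise, with -0.53 and 0.34.

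**Figure D4:**
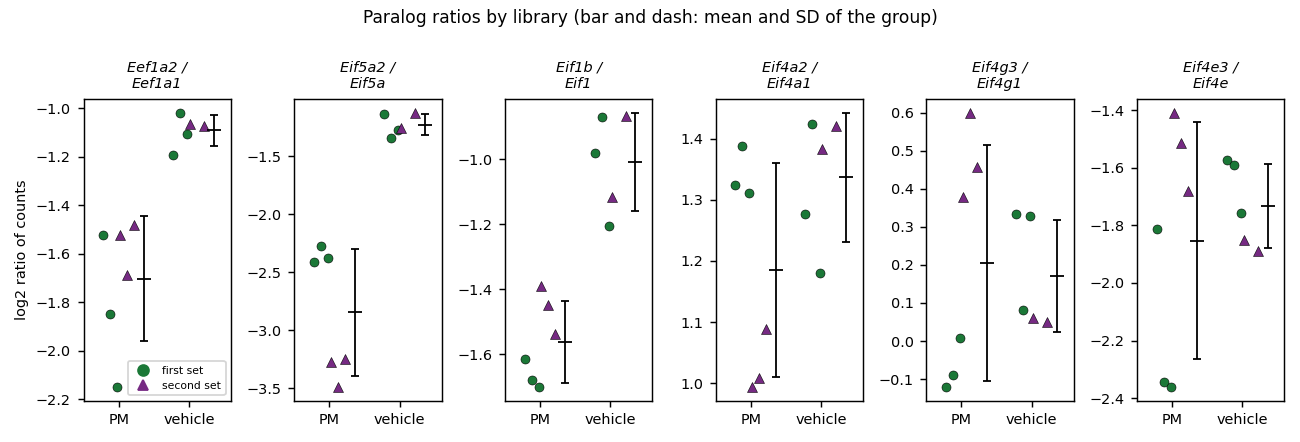
Log2 ratio of the counts of 6 paralog pairs in each PM library, on the left of each panel, and each vehicle library, on the right; circles are the first set and triangles the second, and the dash and bar are the mean and SD of the group. The Eef1a, Eif5a and Eif1 ratios lie lower in all 6 PM libraries than in all 5 vehicle libraries; the other 3 pairs overlap, and in Eif4g3/Eif4g1 the PM sets lie on either side of all vehicle libraries.

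Genes that act on or beside these factors gave a mixed picture, and no list was tested as a set. Values of the listed genes, here and in the next paragraph, are as fitted, without removal of the length and GC trend. The part of transcript length in their changes was not tested. All 4 eIF2 kinases were lower in PM, with log2 fold changes of -1.04 for Eif2ak4 (the amino acid sensor GCN2), -0.55 for Eif2ak2 (PKR), -0.49 for Eif2ak1 (HRI) and -0.40 for Eif2ak3 (PERK). Downstream of them, the transcription factors Ddit3 (CHOP; 1.24) and Atf4 (0.68) and the phosphatase subunit Ppp1r15a (0.50) were higher. Of this list, 3 of 11 tested genes were higher and 5 lower, with a median log2 fold change of -0.29, which lies near the shares over all genes tested (32.7% higher and 36.4% lower). In the mTORC1 list, which controls the 4E-binding proteins, 3 of 15 were higher and 10 lower (median -0.48), led by the kinases Rps6kb1 (-0.91) and Mtor (-0.90) and the adaptor Rptor (-0.62) among the falls and by the GTPase Rheb (1.08), Mknk2 (0.77), which phosphorylates eIF4E, and Akt1s1 (0.63) among the rises.

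Both enzymes that make the hypusine of eIF5A rose: Dhps averaged 25.7 CPM in PM and 7.39 CPM in vehicle (log2 fold change 1.80), and Dohh 62.8 CPM in PM and 22.9 CPM in vehicle (1.47, edgeR adjusted p = 4.95e-07). The counts that follow stand against 32.7% higher and 36.4% lower over all genes tested. Of the genes that make the diphthamide of eEF2, 2 of 7 were higher (Dph2, 1.33, and Dph7, 0.74), 1 was lower (Dph6, -0.33) and 4 did not pass. Of 12 poly(A)-binding and other initiation helpers, 7 were higher and 2 lower, among them the re-initiation factor Denr (1.33) and Abcf2 (1.04) against the ribosome recycling factor Abce1 (-0.42) and the poly(A)-binding protein Pabpc1 (-0.33). Of 10 genes of termination and rescue, 4 were higher (Pelo, 0.88) and 3 lower (the release factors Gspt1, -0.73, and Gspt2, -0.65, and the ubiquitin ligase Ltn1, -0.67). Of 20 cytosolic aminoacyl-tRNA synthetases, 14 were higher, led by Mars (1.01), Farsa (0.96) and Hars (0.87), and 2 were lower, Iars (-0.55) and Farsb (-0.26). Of 10 mitochondrial translation factors, 2 were higher (Tufm, 1.44, and Tsfm, 1.21), 2 lower (Gfm1, -0.77, and Gfm2, -0.45) and 6 not past the threshold. Of the cytosolic ribosomal proteins, 72 of 74 tested genes were higher and 0 lower, with a median log2 fold change of 1.80.

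Transcript length went with the size of the change. Across the 56 tested members, Spearman's rho between log2 fold change and the length of the longest annotated transcript was -0.671 (set 1: -0.581, set 2: -0.732), against -0.469 over 14858 genes, as a description across genes that share their libraries. For GC content rho was 0.231 over the members and 0.366 over all genes. Of the 19 shortest members, 744 to 2170 bases long, 17 were higher and 0 lower, where 58.9% of all genes of that length were higher and 13.6% lower. The middle 18, at 2323 to 3432 bases, held 15 higher and 0 lower (40.7% and 22.1% of all genes of that length), and the 19 longest, at 3465 to 8134 bases, held 3 higher and 7 lower (18% and 50%). All 7 falls were thus among the longest members. After removal of the length and GC trend from each library, 39 members were higher and 4 lower, against 36.1% and 28.2% of all genes, and the median of the members was 0.51. The 4 were Eif4ebp2, Eif4g1, Eif4enif1 and Eif2d; the eEF1 group kept 5 of 6 rises, eIF3 had 10 rises and 0 falls, and eIF4G turned to 2 rises and 1 fall. Members that newly passed as higher included Eif5b (1.30), Eef2k (0.92), Eif2s2 (0.73) and Eif5 (0.54). The shares of counts with no feature and of Rn45s also separated the groups, and their part in the length relation was not tested.

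**Figure D5:**
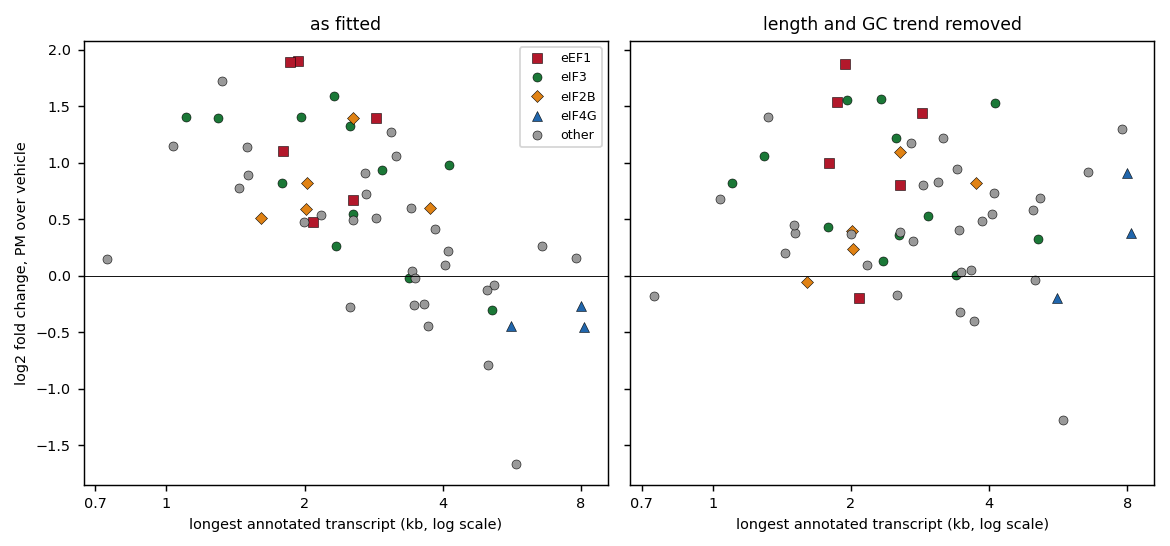
Log2 fold change, PM over vehicle, of the 56 tested translation factor genes against the length of the longest annotated transcript in kb (log axis), as fitted on the left and with the length and GC trend of each library removed on the right; colours mark eEF1, eIF3, eIF2B and eIF4G. On the left the change falls with length (rho -0.671) and the 3 eIF4G genes lie below 0; on the right 2 of them lie above 0 and most eEF1 and eIF3 genes stay above it.

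The start regions of the members were searched for short motifs, on both strands, in windows of 250 bases before to 50 after the start from RefSeq on GRCm38.p6, which held 44 of the 56 tested members and 11278 of all tested genes. The E-box CACGTG occurred in 12 members, 27.3%, against 11.3% of all genes, and the ETS motif CCGGAAGT in 8, 18.2%, against 7.97%. The motifs GGGCGGGG (34.1% of members, 35.9% of all genes) and TATAAA (9.09% and 8.92%) differed less. TGACGTCA and the NRF1 motif occurred in 1 member each (3.43% and 2.15% of all genes). No matches of different motifs overlapped. The E-box was found in members of both directions, and 7 of the 27 higher members with a window held it. The windows below show it in 4 members that were higher, Eef2, Eif1b, Eif4a1 and Eif5a, and in Eif5a2 and Eif4g1, which were lower, and the ETS motif at the start of Eef1b2; capitals mark E-box and ETS matches, and each line runs 5′ to 3′ on the strand of the gene.
Eef2, chr10:81176561-81176620, plus strand: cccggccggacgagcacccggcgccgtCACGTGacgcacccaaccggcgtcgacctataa
Eif1b, chr9:120492555-120492614, plus strand: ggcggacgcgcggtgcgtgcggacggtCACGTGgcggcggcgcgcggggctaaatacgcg
Eif4a1, chr11:69672580-69672639, minus strand: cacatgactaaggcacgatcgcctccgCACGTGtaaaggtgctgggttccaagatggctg
Eif5a, chr11:69921428-69921487, minus strand: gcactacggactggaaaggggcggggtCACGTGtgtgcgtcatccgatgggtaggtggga
Eif5a2, chr3:28781108-28781167, plus strand: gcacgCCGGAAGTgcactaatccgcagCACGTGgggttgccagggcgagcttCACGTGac
Eif4g1, chr16:20672646-20672705, plus strand: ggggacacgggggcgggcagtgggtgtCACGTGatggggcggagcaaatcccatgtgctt
Eef1b2, chr1:63176781-63176840, plus strand: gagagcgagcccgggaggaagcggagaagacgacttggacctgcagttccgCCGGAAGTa
A match describes these letters only, and a gene can have other start sites than the one used.

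Eef1a1 was the most abundant member in both groups, and the order below it differed between them. Per kb of the longest annotated transcript, the 6 most abundant members in PM were Eef1a1 at 1499, Eef2 at 393, Eef1a2 at 391, Eif1 at 261, Eif4a2 at 229 and Eif5a at 209 CPM per kb. In vehicle Eef1a1 stood at 709, Eef1a2 at 286, Eef2 at 165, Eif5a at 122, Eif4a2 at 122 and Eif4g2 at 84.3 CPM per kb, with Eif1 next at 79.8. Eef2 and Eef1a2 thus had like levels in PM, whereas in vehicle Eef1a2 was the higher of the pair. At the low end of the tested members, Eif4ebp1 had 1.17 CPM per kb in PM and 0.841 CPM per kb in vehicle, and Eef2kmt 1.91 in PM and 1.32 in vehicle. Eif4ebp2 joined them in PM only, at 1.92 CPM per kb. In vehicle it had 6.14 CPM per kb, above Eif2b3 at 2.64 and Eef2k at 5.10 CPM per kb.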

How the data were processed

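The deposited files hold raw read counts per gene symbol, 1 file per library, not normalized by the authors. The submitters' processing notes list HTSeq 0.9.1, STAR, Trimmomatic 0.36, FastQC 0.11.9, Picard 2.9.2 and SAMtools 1.9, with mm10 and hg19 as builds. The strand setting of the counting was not given in the sources used here. The labels' protocols describe removal of ribosomal RNA, whereas the molecule field names polyA RNA.

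HTSeq summary rows (no feature 18.8% to 34.0% of counts in PM and 60.9% to 62.0% in vehicle libraries) stayed out of library sizes and tests. The total of gene counts per library, 6012116 to 17763893, limits the precision of low genes. Genes kept by filterByExpr (minimum count 10) were scaled by TMM and tested with edgeR 4.0.16 (R 4.3.3, robust quasi-likelihood, two-sided, Benjamini-Hochberg over 14982 genes, threshold 0.05), PM over vehicle with the deposit set as covariate. Effects within a set and their difference came from 1 joint fit of the 4 group and set means. SE is the size of the log2 fold change over the root of its F statistic. Paralog ratios used counts plus 0.5 and an exact permutation test. Lengths, GC content and coding starts came from GENCODE M21 (GRCm38, as mm10), which matched 98.5% of symbols; promoter windows are RefSeq's. CPM per kb divide by the longest annotated transcript of a gene, so ranks by it depend on that transcript. Shared windows are 100-base stretches of a member's longest transcript found, on either strand, in a transcript of another gene. They thus include exons of other genes at the same place. The fits were tested on simulated counts with the spread of the vehicle libraries and 100 genes changed at each of 1.5-fold and 2-fold, among 15107. Because most genes are called here and PM libraries vary more, this does not give the error rate in these data.

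The members, the lists of related genes, the cell type markers and the rule for named genes (in each factor group the largest rise, the largest fall and the most abundant member, the paralog pairs, members of opposite sign in the sets, and up to 3 genes of smallest p per direction of each list) were chosen with earlier results of these data known. Libraries of a group were compared for repeated deposits, and none differed by as little as sampling noise. Vehicle replicates 1 and 3 lay closest (chi-square over degrees of freedom 2.01), followed by vehicle replicates 4 and 5 (3.24). Vehicle replicate 2 lay at 12.6 from replicate 1 and 12.9 from replicate 3, and the closest PM pair, replicates 4 and 5, at 11.1. Whether vehicle replicates 1 and 3 come from separate animals was not tested, so fewer than 5 vehicle libraries may be independent. Alternatives were DESeq2 1.42.0 with its size factors or test, other filters on low counts, removal of the length and GC trend, structural RNAs left out of library sizes, no set covariate, a replicate block, each set alone, another pseudocount and each library left out. No per-sample column was left unused.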

Additional observations from a re-analysis of the deposited data

Results flagged for a closer look

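In 3 of 112 groups of libraries the lowest or highest library stood apart from the others by Dixon's criterion, which chance meets in about 1 of 20 groups. Eef1d, a subunit of the eEF1B exchange complex, had 75.4 CPM in PM replicate 1, against 86.7 to 92.4 CPM in the other PM libraries. Eif2b4, the delta subunit of eIF2B, had 38.1 CPM in PM replicate 4, against 27.7 to 31.4 CPM in the others. Eef1e1 had 14.2 CPM in vehicle replicate 4, against 17.2 to 18.3 CPM in the other vehicle libraries.

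The log2 fold change, PM over vehicle, differed between the sets in 24 members (edgeR's joint fit, Benjamini-Hochberg adjustment over all genes). Given as the second set minus the first, the difference was -1.40 for Eif2s3x, -1.23 for Eif5a2, -0.93 for Eif3m, -0.92 for Eef1b2, -0.92 for Eif1ax, -0.84 for Eif6, -0.82 for Eif1a and -0.70 for Eif2s2. It was -0.67 for Eif4a2, -0.66 for Eif4ebp2, -0.62 for Eif2s1, -0.62 for Eif3e, -0.60 for Eif4g2, -0.54 for Eif5, -0.49 for Eef1g, -0.43 for Eif4h, -0.39 for Eif3a and -0.35 for Eif4b. The second set was above the first by 1.62 for Eif4ebp3, 0.84 for Eif4g3, 0.70 for Eef2k, 0.60 for Eif2d, 0.54 for Eif2b4 and 0.51 for Eif4e3. In Eif5a2 and Eif4ebp2 a negative difference means a deeper fall in the second set, and in Eef1b2, Eef1g, Eif3m, Eif4a2 and Eif6 a smaller rise. Without vehicle replicate 5 the count of 24 was 13.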

How the results depend on the processing

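The counts of members higher and lower and their median kept their direction and stayed within 1.5 times their value under every alternative run, with 1 exception: 4 members in place of 7 were lower with the length and GC trend removed. DESeq2's own test gave 36 higher and 6 lower. With each library left out in turn, 34 to 36 members were higher and 5 to 8 lower, the median was 0.52 to 0.63, and in the first and second set 35 to 40 and 28 to 34 were higher. The members that differed between sets numbered 13 to 28, with 13 without vehicle replicate 5. The trend removal turned the sign of Eif3a (0.33), Eif4e (0.58), Eif4g3 (0.37), Eif4g2 (0.91), Eef1a2 (-0.19), Eif1ax (0.69), Eif4ebp3 (-0.18), Eif2b2 (-0.05), Eif2s3x (0.05), Eif3c (0.0087) and Eif4e2 (0.04). Eif1ax, near 0, was also 0.0133 with no filter, 0.0087 without vehicle replicate 4, 0.0144 without vehicle replicate 5 and 0.0137 without PM replicate 6, and Eif4ebp3 ran from -0.13 (without vehicle replicate 5) to 0.27 with single libraries left out. The causes were not tested. Replicate numbers did not pair the libraries (correlations of deviations -0.176 to -0.00501). With them as a replicate block, 34 members were higher and 5 lower, the calls of Eif3a (adjusted p = 0.052), Eif3l (0.0743) and Eif4g2 (0.15) were not made, and the paralog differences were -0.66 (Eef1a2/Eef1a1), -1.54 (Eif5a2/Eif5a) and -0.56 (Eif1b/Eif1), each at the smallest p that 5 pairs can give (adjusted p 0.125), and -0.0158 for Eif4g3/Eif4g1. With single libraries left out, Eif4g3/Eif4g1 ran from -0.0445 to 0.0996, changing sign without PM replicate 4, 5 or 6, and the other pairs kept their sign and side of the threshold. Depth limits most the members under about 5 CPM, Eif4ebp1 and Eef2kmt.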
